A study of Homo sapiens with 42 samples.

Results

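The 43 genes described here act in meiosis or in the piRNA pathway of germ cells. They were chosen by name from the 60240 genes of the deposited expression table, with earlier results of these data known, and all 43 names were found there. They comprise 3 germ cell RNA-binding proteins, 18 piRNA pathway genes, 8 genes of the synaptonemal complex and chromosome axis, 4 meiotic cohesin subunits, 5 recombination genes and 5 genes of meiotic entry and other germ cell functions. Total RNA of the human acute myeloid leukaemia (AML) lines SKM-1, OCI-AML3, MOLM-14, MOLM-13 and KG-1, 5 in all and labelled WT, was sequenced in stranded libraries. Each line was cultured with decitabine, a nucleoside drug that depletes DNA methyltransferases and so lowers CpG methylation (100 nM given on each of the first 3 days), or with the solvent DMSO, and RNA was taken at 72 hours. There were 3 libraries per line and treatment, 30 in all. MOLM-13 and MOLM-14 are sister lines of a common origin. The labels do not say whether replicates are separate cultures, so the p-values rest on spread between libraries that may be technical only.

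Germ cells silence transposons with piRNAs, small RNAs that guide PIWI proteins to transposon transcripts and to their genomic copies. Precursors are cut on the outer membrane of mitochondria, trimmed, methylated at their tail and loaded onto PIWI proteins, with Tudor-domain proteins as the scaffold. In meiosis, a germ cell-specific cohesin and axis hold sister chromatids, SPO11 breaks the DNA, recombinases pair the homologues, and the synaptonemal complex joins them. In most somatic tissues many of these genes are silent, and DNA methylation of CpG-rich promoters and E2F6-containing Polycomb complexes are among the known repressors.

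Values are normalised counts, that is, estimated read counts divided by DESeq2 size factors by the authors. Estimated depth, in units of 1e+06 reads, was 1.97 to 4.59 in 6 libraries, the replicate 2 pairs of OCI-AML3, MOLM-14 and KG-1, and 12.6 to 75.1 in the other 24. A single read was worth 4.30 to 10.3 normalised counts in those 6 libraries and 0.279 to 1.38 in the others, so low values of replicate 2 in these lines are coarse. Depth also followed the line. It was 50.9 to 69.2 in SKM-1 and 42.9 to 75.1 in MOLM-13, and reached at most 31.2 in KG-1, 25.9 in OCI-AML3 and 17.3 in MOLM-14. Low values are thus measured more finely in SKM-1 and MOLM-13. The part of depth in the differences between lines given below was not tested. Of 10 haematopoietic and myeloid markers, 9 had reads in all 30 libraries, among them PTPRC, the pan-leukocyte phosphatase CD45 (3643 to 12169 normalised counts), SPI1, the myeloid transcription factor PU.1 (666 to 2182), and CD33, a myeloid surface receptor (570 to 2346). The stem and progenitor markers KIT (0 in 3 libraries) and CD34 (1.90 to 31071) and the granule enzyme MPO (13.7 to 42233) varied widely. The spermatid genes PRM1, PRM2, TNP1, AKAP4 and ODF1 were at 0 in all 30 libraries and all 10 spermatid markers together summed to at most 5.08. Of 8 primordial germ cell markers, SOX17 was at 0 in all 30 and DPPA3, NANOS3 and PRDM14 reached at most 6.91, while DND1, POU5F1, TFAP2C and NANOG reached 21.2, 40.4, 59.6 and 72.1. In bulk RNA, more cells that express a gene and more RNA per cell cannot be told apart.

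After decitabine many of these genes rose, with the highest count in SKM-1. A gene was tested if it had at least 10 normalised counts in at least 3 libraries, which 34 of the 43 members and 22168 genes in all did. It was called at a Benjamini-Hochberg adjusted p below 0.05 over all 22168 genes (limma), on the scale log2(normalised count + 1). The fit took 1 spread per gene over all 10 groups, so the SE of a gene is the same in every single line. Such an SE does not measure the spread of the 3 libraries of the line named, and scatter in other lines enters each call. On the mean over the 5 lines, the panel mean, 18 of 34 members rose, which is 52.9%, against a background of 12% of all tested genes called higher. Since the members were chosen with earlier results of these data known, such shares of members are descriptions. The panel mean difference was 3.50 ± 0.28 in TDRD9, 3.18 ± 0.34 in HORMAD1, 2.51 ± 0.23 in DAZL and 2.39 ± 0.26 in GPAT2 (SE). In the other direction PLD6 alone fell, 1 of 34, against a background of 7.52% called lower. The median panel mean difference was 0.80 over the 34 members and 0.06 over all tested genes. In a fit without SKM-1, 9 members were called on the panel mean, 8 of them higher, in place of 19. These counts concern members that passed the filter: 6 of them (DDX4, BOLL, GPAT2, TDRD1, TDRD6 and TEX11) passed through the SKM-1 decitabine libraries and 2 (STRA8 and BRDT) through those of OCI-AML3, and for these a difference in that line follows in part from the filter.

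Line by line, 18 members rose in SKM-1 (background 5.7%), 9 in OCI-AML3 (3.74%), 3 in KG-1 (3.12%), 3 in MOLM-14 (6.26%) and 1 in MOLM-13 (1.45%). Members called lower were PLD6 in MOLM-13 (background 1.67%), MOLM-14 (4.77%) and SKM-1 (3.32%). The median difference of the 34 members was 2.11 in SKM-1, 0.49 in OCI-AML3, 0.24 in MOLM-13, 0.16 in KG-1 and 0.14 in MOLM-14. Over all tested genes these medians were 0.08, 0.01, 0.08, 0.02 and 0.01 in the same order of lines. Counted in both directions, the calls were 19 on the panel mean (background 19.5%), 19 in SKM-1 (9.02%), 9 in OCI-AML3 (5.37%), 4 in MOLM-14 (11%), 3 in KG-1 (3.78%) and 2 in MOLM-13 (3.13%). All 3 decitabine libraries lay above all 3 DMSO libraries for 27 of the 34 members in SKM-1 (background 29.2%), 13 in OCI-AML3 (10.1%), 6 in MOLM-13 (22.8%), 4 in MOLM-14 (11.2%) and 4 in KG-1 (10.2%). They lay below for 4 in MOLM-13 (background 17%), 1 in MOLM-14 (9.5%) and 1 in SKM-1 (18.9%). Of the 34 members, 4 rose in 3 lines, 5 in 2 lines, 12 in 1 line and 13 in no line, against 0.952%, 2.46%, 10.8% and 85.4% of all tested genes. Of all 43 members, 28 averaged at least 10 normalised counts in SKM-1 after decitabine, against 12 with DMSO, and 23 did so in OCI-AML3 after decitabine, against 15 with DMSO. After decitabine and with DMSO, the numbers were 18 and 14 in MOLM-14, 16 and 13 in MOLM-13 and 15 and 15 in KG-1. The share of all genes at this level was not computed, so these numbers have no background. The response differed between lines for 15 of 34 members by the F-test (background 9.46%), and for 5 of them in a fit without SKM-1. When each line was fitted on its own 6 libraries, limma kept all 19 calls of SKM-1. It called 0 members in KG-1 (3 at an unadjusted p below 0.05), 1 in MOLM-14 (PLD6) and 1 in OCI-AML3 (TDRD9). The calls of DAZL, PIWIL4, HORMAD1, MEIOB and STRA8 in KG-1, MOLM-14 or OCI-AML3 were among those lost (adjusted p up to 0.222). In MOLM-13 that fit called 8 members in place of 2. Without the 6 shallow libraries the calls were 3 in KG-1, 5 in MOLM-13, 4 in MOLM-14, 13 in OCI-AML3, 25 in SKM-1 and 22 on the panel mean.

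**Figure D1:**
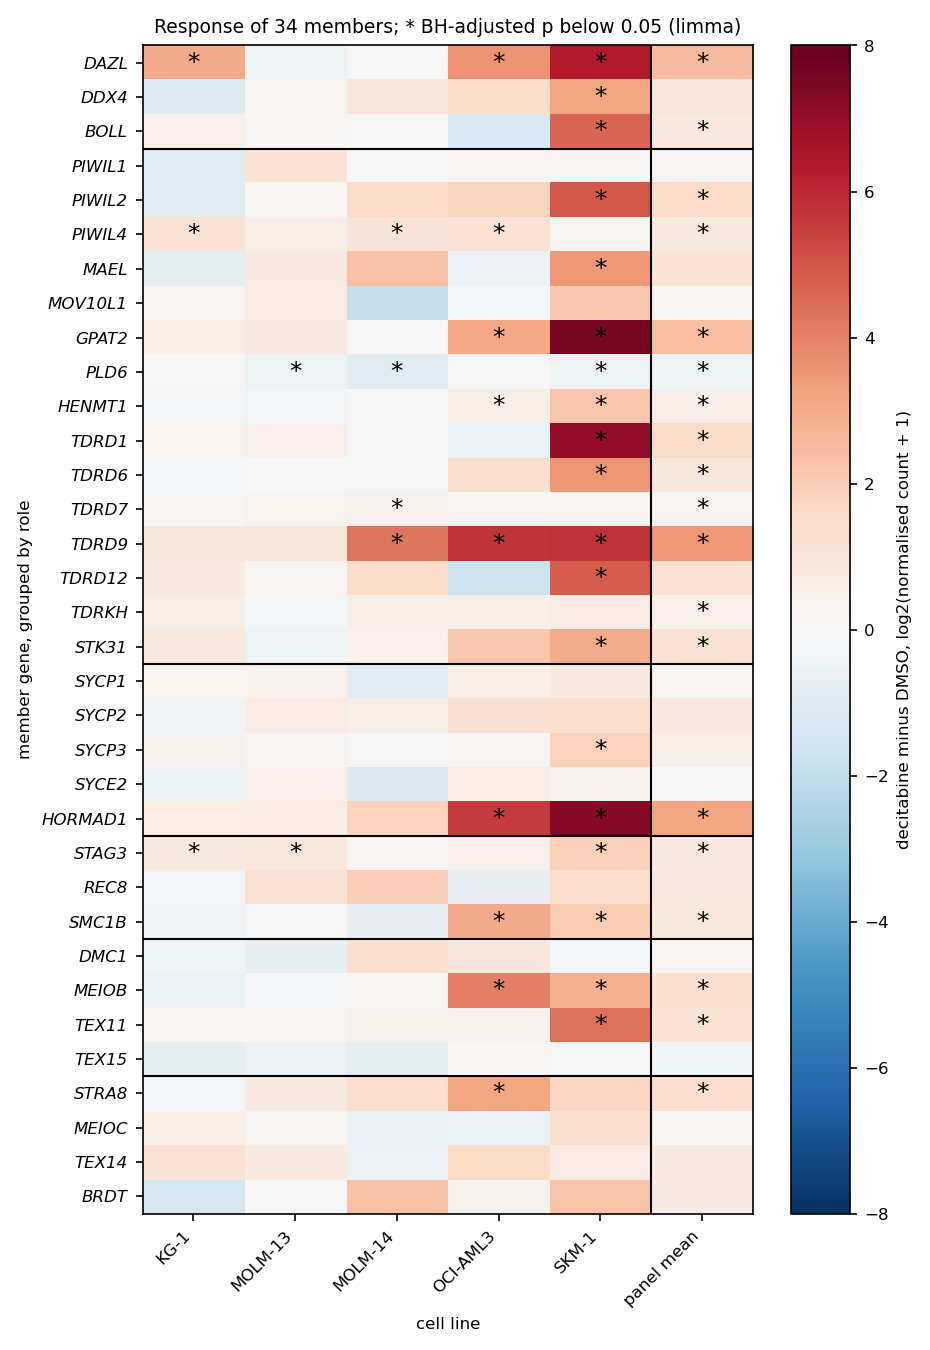
Difference between decitabine and DMSO in each of the 5 lines and on the panel mean for the 34 tested members (rows, grouped by role; columns, lines). Colour gives the difference on the log2(normalised count + 1) scale and an asterisk marks an adjusted p below 0.05 (limma); the SKM-1 column holds 19 asterisks and the MOLM-13 column 2.

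Other measures moved with treatment in the same libraries. The summed level of 10 monocyte and macrophage markers was higher after decitabine in every line, with 27490 to 28399 normalised counts in SKM-1 decitabine libraries and 10314 to 12100 with DMSO. Of the 9 tested genes in this sum, 7 rose on the panel mean (background 12%). The sum included CD14, the monocyte co-receptor for lipopolysaccharide, which stayed at or below 5.36 in all 30 libraries. The share of mitochondrially encoded RNA was 15.5% to 18.2% in SKM-1 after decitabine and 13.7% to 15.1% with DMSO, and in MOLM-13 it was 18.2% to 19.1% after decitabine and 12.5% to 14.1% with DMSO. The 8 primordial germ cell markers summed to 77.7 to 98.4 normalised counts in SKM-1 after decitabine and 62.2 to 70.1 with DMSO, to 103 to 142 in OCI-AML3 after decitabine and 54.5 to 109 with DMSO, and to 20.5 to 70.2 in MOLM-14 after decitabine and 46.2 to 89.2 with DMSO. In MOLM-13 they summed to 52.7 to 62.1 after decitabine and 38.4 to 44.4 with DMSO. In KG-1 they had 44.95 to 56.6 after decitabine and 19.9 to 44.94 with DMSO. Of their 4 tested genes TFAP2C, a germ cell specification factor, rose on the panel mean (1.09 ± 0.24, SE, adjusted p = 0.00154), in MOLM-14 (adjusted p = 0.00817) and in OCI-AML3 (adjusted p = 0.0116), by limma. The 8 Sertoli and Leydig cell markers summed to 956 to 1066 in SKM-1 after decitabine and 472 to 498 with DMSO and were higher after decitabine in every line, most of it from STAR, a cholesterol transporter that these leukaemia lines express (lowest library, 49.3). The part of these measures in the members' response was not tested.

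Promoter sequence is shown for 5 members, since decitabine acts through CpG methylation: 4 that rose and SPO11, which had no reads anywhere. RefSeq windows (GRCh38.p14, 250 bases before to 50 bases after a transcript start, 5′ to 3′ on the gene's strand) were found for 36 of the 43 members. Capitals mark CpG dinucleotides.
DAZL, chr3:16605374-16605673, minus strand: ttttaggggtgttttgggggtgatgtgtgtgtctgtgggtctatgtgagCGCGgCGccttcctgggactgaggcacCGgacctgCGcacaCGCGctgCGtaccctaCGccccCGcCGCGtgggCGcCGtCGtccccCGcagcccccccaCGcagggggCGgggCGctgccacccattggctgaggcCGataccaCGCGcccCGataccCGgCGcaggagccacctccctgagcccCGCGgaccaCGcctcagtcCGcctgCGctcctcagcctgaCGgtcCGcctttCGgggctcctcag
TDRD9, chr14:103928206-103928505, plus strand: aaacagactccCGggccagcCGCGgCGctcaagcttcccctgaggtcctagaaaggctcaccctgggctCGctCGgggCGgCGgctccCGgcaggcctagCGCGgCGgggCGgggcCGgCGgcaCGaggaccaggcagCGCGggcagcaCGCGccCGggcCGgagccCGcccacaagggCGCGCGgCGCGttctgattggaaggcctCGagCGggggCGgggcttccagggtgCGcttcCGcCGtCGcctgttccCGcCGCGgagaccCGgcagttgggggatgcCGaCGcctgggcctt
TDRD1, chr10:114179037-114179336, plus strand: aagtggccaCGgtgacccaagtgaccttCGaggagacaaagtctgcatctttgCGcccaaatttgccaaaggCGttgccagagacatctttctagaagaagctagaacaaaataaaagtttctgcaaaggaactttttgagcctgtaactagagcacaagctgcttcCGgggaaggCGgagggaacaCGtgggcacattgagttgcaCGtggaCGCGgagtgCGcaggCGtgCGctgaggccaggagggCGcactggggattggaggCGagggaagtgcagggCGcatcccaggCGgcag
GPAT2, chr2:96036216-96036515, minus strand: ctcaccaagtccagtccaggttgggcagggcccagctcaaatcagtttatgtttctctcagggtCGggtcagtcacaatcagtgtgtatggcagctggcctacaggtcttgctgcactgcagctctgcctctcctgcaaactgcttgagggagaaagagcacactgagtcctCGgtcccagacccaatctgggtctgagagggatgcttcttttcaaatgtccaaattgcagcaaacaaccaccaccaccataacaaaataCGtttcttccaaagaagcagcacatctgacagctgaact
SPO11, chr20:57329553-57329852, plus strand: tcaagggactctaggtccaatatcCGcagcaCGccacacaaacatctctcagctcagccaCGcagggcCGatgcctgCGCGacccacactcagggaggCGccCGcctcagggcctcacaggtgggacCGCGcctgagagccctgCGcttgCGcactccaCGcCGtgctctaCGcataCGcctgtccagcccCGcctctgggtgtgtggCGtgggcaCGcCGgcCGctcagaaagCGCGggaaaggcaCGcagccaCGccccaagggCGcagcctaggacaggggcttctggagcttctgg
These windows hold 33 CpGs in DAZL, 41 in TDRD9, 17 in TDRD1, 3 in GPAT2 and 26 in SPO11. GPAT2 has windows for 3 transcript starts, and the 2 not printed hold 11 and 28 CpGs, so its count depends on the start used.

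Across the 36 windows the median was 26.5 CpGs, against 14 over 27305 genes, and the median GC share was 65.7%, against 58.3%. The E-box CACGTG, a palindrome, occurred in 5 of the 36 members' windows (13.9%) and in 7.43% of all genes. The E2F-type motif GCGGGA, which reads TCCCGC on the other strand and was searched on both, occurred in 19 of 36 (52.8%), against 26.8% of all genes. Both motifs hold a CpG, and the members' windows are richer in CpG than those of all genes. The E2F-type motif occurred in 8 of 15 members that rose in SKM-1, in 7 of 12 that were tested and did not rise, and in 4 of 9 below the filter. In the printed windows, the E-box begins 65 and 45 bases before the transcript start of TDRD1, and the E2F-type motif begins 15 bases before that of SPO11 and at base 2 after that of TDRD9. The CpG numbers of members that rose and did not rise overlapped: the 15 members that rose in SKM-1 had a median of 26 CpGs (1 to 60), the 12 that were tested and did not rise had 29.5 (0 to 50), and the 9 below the filter had 26 (3 to 36). For 5 members the window lies over 1000 bases from the outermost gene start in GENCODE 29: 64883 bases downstream of it in DAZL, 28868 in DDX4, 3186 in GPAT2 and 1544 in SYCE1, and upstream, at -12885, in TEX101. Such a window may belong to another start than the one in use. Without these 5, the 12 members that rose in SKM-1 had a median of 26.5 CpGs (13 in TEX11 to 60 in MAEL), against 29.5 (0 to 50) in the 12 that did not.

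**Figure D2:**
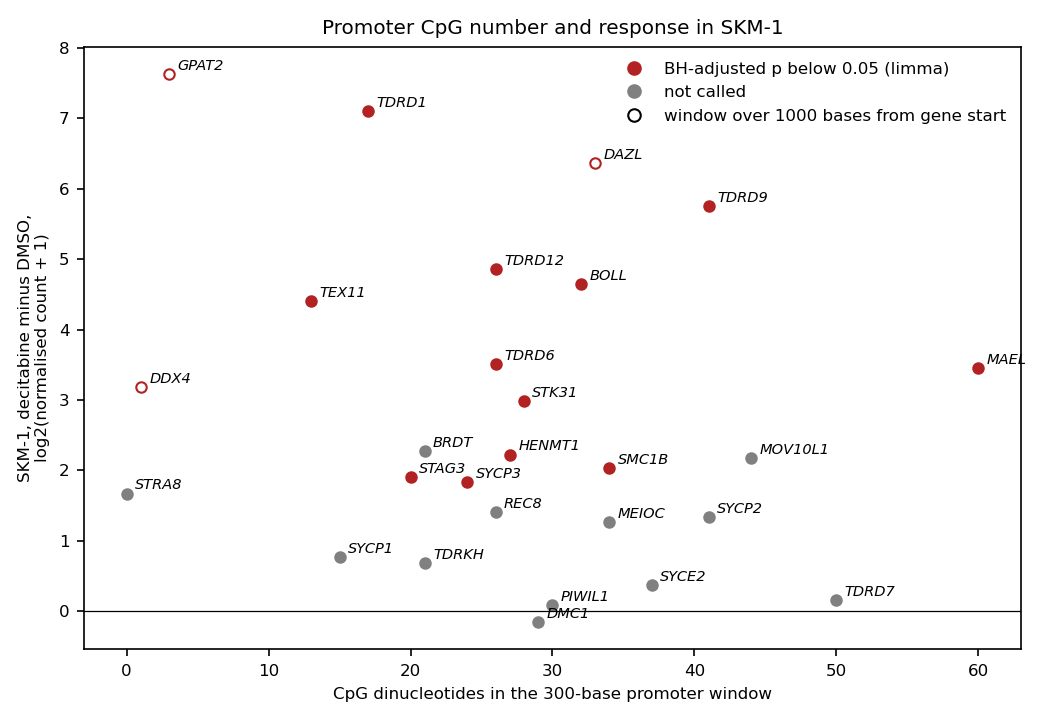
Number of CpG dinucleotides in the 300-base promoter window (horizontal axis) and difference between decitabine and DMSO in SKM-1 on the log2(normalised count + 1) scale (vertical axis) for the 27 tested members with a window. Red points were called (limma) and grey points were not, and open points (GPAT2, DAZL, DDX4) have a window over 1000 bases from the outermost gene start; called members with a filled point lie between 13 CpGs in TEX11 and 60 in MAEL.

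Of the germ cell RNA-binding proteins, all 3 rose in SKM-1 (background 5.7%). DDX4 and BOLL would not have passed the filter without the SKM-1 decitabine libraries, so this count follows in part from the filter. DAZL, which binds germ cell mRNAs and promotes their translation, was close to silent with DMSO in every line. In SKM-1 it had 85.2, 81.1 and 99.2 normalised counts after decitabine, against 0.266, 0 and 0 with DMSO. In KG-1 it had 15.5, 10.7 and 17 after decitabine, against 1.67, 0 and 1.48 with DMSO. In OCI-AML3 it had 4.40, 35.3 and 8.01 after decitabine and was listed at 0 in the 3 DMSO libraries. The groups did not overlap in these 3 lines, while all 6 MOLM-14 libraries were at 0 and a single MOLM-13 library, with DMSO, had 1.47. The differences were 6.37 ± 0.52 in SKM-1 (SE pooled over all groups, n = 3 per group, adjusted p = 2.43e-09), 3.60 ± 0.52 in OCI-AML3 (adjusted p = 6.61e-05) and 3.01 ± 0.52 in KG-1 (adjusted p = 0.000599), all by limma. The OCI-AML3 and KG-1 calls were lost in the limma fit on the line alone (adjusted p = 0.215 and 0.161). Where the DMSO libraries are at 0, the size of such a difference depends on the pseudocount of 1. The DAZL window printed above holds 33 CpGs.

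DDX4, the germ granule RNA helicase also known as VASA, averaged 12.7 ± 3.94 normalised counts in SKM-1 after decitabine and 0.534 ± 0.491 with DMSO (SD, n = 3 each), a difference of 3.18 ± 0.82 (SE; adjusted p = 0.0125). This call was lost without decitabine replicate 3 or DMSO replicate 3 of SKM-1, with an adjusted p up to 0.0677. BOLL, an RNA-binding relative of DAZL, averaged 44.9 ± 9.90 after decitabine and 0.821 ± 0.318 with DMSO in SKM-1 (SD, n = 3 each), a difference of 4.65 ± 0.60 (SE; adjusted p = 5.41e-06). Outside SKM-1 it stayed at or near 0, with 11.7 in 1 shallow OCI-AML3 DMSO library. Its panel mean difference of 0.79 was called, but it was lost in 20 of 30 fits that left out 1 library (adjusted p up to 0.0721) and was -0.17 without SKM-1.

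Among the piRNA pathway genes, 10 of 15 tested rose on the panel mean (background 12%) and 9 of 15 in SKM-1 (background 5.7%). GPAT2, TDRD1 and TDRD6 would not have passed the filter without the SKM-1 decitabine libraries, so both counts follow in part from the filter. Of the PIWI proteins, which carry the piRNA, PIWIL2 rose in SKM-1 and PIWIL4 in OCI-AML3, MOLM-14 and KG-1. PIWIL2 had 258, 309 and 272 normalised counts in SKM-1 after decitabine, against 10.2, 6.09 and 7.94 with DMSO, with no overlap between the groups. Its difference there was 4.97 ± 0.86 (SE; adjusted p = 0.000249, limma). In the other lines PIWIL2 groups overlapped, with 4.56, 8.04 and 3.19 in KG-1 after decitabine and 18.3, 18.6 and 2.23 with DMSO. In MOLM-13 it had 17.4, 18.6 and 17 after decitabine and 16.5, 17.7 and 12.7 with DMSO, in MOLM-14 5.94, 38.5 and 5.6 after decitabine and 7.07, 0 and 8.45 with DMSO, and in OCI-AML3 21.2, 13.9 and 9.01 after decitabine and 11.7, 0 and 5.25 with DMSO. PIWIL2 was thus measurable with DMSO in every line, and its response differed between lines by the F-test (adjusted p = 0.0177).

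PIWIL4, the PIWI protein whose mouse counterpart acts in the nucleus, was expressed in every library. It had 110, 82.7 and 96.5 normalised counts in KG-1 after decitabine, against 32.5, 47.0 and 51.2 with DMSO. In MOLM-14 it had 356, 499 and 319 after decitabine, against 222, 158 and 198 with DMSO. OCI-AML3 libraries had 410, 345 and 507 after decitabine, against 237, 148 and 195 with DMSO. The groups did not overlap in these lines, and the differences of 1.14 ± 0.21, 1.00 ± 0.21 and 1.13 ± 0.21 (SE) all passed the test (adjusted p = 0.00109, 0.00226 and 0.00123, limma). All 3 calls were lost in the limma fit on the line alone (adjusted p = 0.179, 0.121 and 0.163 in the same order). In MOLM-13 it had 628, 601 and 696 after decitabine and 401, 480 and 442 with DMSO, also without overlap but not called (0.54 ± 0.21, adjusted p = 0.207). In SKM-1 it had 115, 96.3 and 91.5 after decitabine and 98.6, 80.7 and 78.7 with DMSO, and these overlapped. The F-test found no difference between lines for PIWIL4 at the threshold (adjusted p = 0.109). FUT4, a fucosyltransferase gene, overlaps PIWIL4 on the same strand, so reads may be shared; its differences were 0.29 in KG-1, 0.16 in MOLM-14 and 0.01 in OCI-AML3, none of them called, and it fell by 0.82 in SKM-1 (adjusted p = 3.32e-06). PIWIL1 passed the filter through 3 scattered libraries, reached at most 20.5 and was called in no line.

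GPAT2, an acyltransferase-family protein of the mitochondrial outer membrane needed for piRNA production in mouse, had the largest difference of the members in SKM-1. It had 283, 350 and 276 normalised counts there after decitabine, against 0.371, 0.757 and 0.494 with DMSO, a difference of 7.62 ± 0.59 (SE; adjusted p = 1.07e-09, limma). In OCI-AML3 it had 19.4, 32.8 and 3.67 after decitabine, against 0.935, 0 and 1.63 with DMSO, a difference of 3.10 ± 0.59 (adjusted p = 0.00161). The groups did not overlap in either line. With library weights the OCI-AML3 call was lost, as it was in the fit on that line alone (adjusted p up to 0.34). GPAT2 was at 0 in all 6 MOLM-14 libraries and at most 3.78 in MOLM-13 and 2.19 in KG-1. Its 2 annotated pseudogenes did not exceed 4.56 in any library. The window printed above for GPAT2 has the fewest CpGs of the 5.

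PLD6, the mitochondrial nuclease that cuts piRNA precursors, was expressed in every library and fell in 3 lines. In MOLM-14 it had 429, 380 and 414 normalised counts after decitabine, against 704, 794 and 704 with DMSO. In MOLM-13 it had 838, 874 and 869 after decitabine, against 1157, 1133 and 1127 with DMSO. In SKM-1 it had 419, 392 and 382 after decitabine, against 541, 494 and 519 with DMSO. Decitabine libraries were below DMSO libraries in each of these lines, with differences of -0.85 ± 0.10 in MOLM-14 (SE; adjusted p = 2.68e-06), -0.40 ± 0.10 in MOLM-13 (adjusted p = 0.024) and -0.38 ± 0.10 in SKM-1 (adjusted p = 0.0138), by limma. In KG-1 (324, 327 and 380 after decitabine, 328, 299 and 393 with DMSO) and OCI-AML3 (858, 727 and 793 after decitabine, 833, 802 and 795 with DMSO) the groups overlapped. The MOLM-13 call was lost without any 1 of the 6 MOLM-13 libraries (adjusted p up to 0.121), and the SKM-1 call was lost without decitabine replicate 2, decitabine replicate 3 or DMSO replicate 1 (up to 0.0722). Scaling without mitochondrial genes also ended both. A same-strand gene, AC055811.2, overlaps PLD6 and had at most 64.3 normalised counts. MPRIP overlaps PLD6 on the opposite strand and had 1077 to 7733. Whether counting used the strand is not given in the sources used here, so reads may be shared. The differences of MPRIP were -0.53 in MOLM-14, 0.18 in MOLM-13 and 0.26 in SKM-1, none of them called.

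HENMT1, the methyltransferase that protects the tail of mature piRNAs, was expressed in every line with DMSO except SKM-1. With DMSO it averaged 1051 ± 33.4 normalised counts in KG-1, 700 ± 11.5 in MOLM-13, 477 ± 38 in MOLM-14, 278 ± 47.6 in OCI-AML3 and 1.96 ± 0.309 in SKM-1 (SD, n = 3 each), with no overlap between neighbouring lines in this order. In SKM-1 it had 14.3, 11 and 13.3 after decitabine, against 2.24, 1.63 and 2.01 with DMSO, a difference of 2.22 ± 0.14 (SE; adjusted p = 2.19e-11, limma). HENMT1 thus rose in SKM-1 and stayed there below its level in every library of the other lines. OCI-AML3 libraries had 392, 337 and 429 after decitabine, against 230, 326 and 279 with DMSO, a difference of 0.48 ± 0.14 (adjusted p = 0.0413). That call was lost in 12 of 30 fits that left out 1 library (adjusted p up to 0.194), 4 of them leaving out decitabine replicate 1 or 3 or DMSO replicate 1 or 3 of OCI-AML3, and 8 leaving out decitabine replicate 3 or DMSO replicate 1 of KG-1 or any of the 6 MOLM-13 libraries. The limma fit on OCI-AML3 alone also lost that call (adjusted p = 0.485). In KG-1 HENMT1 had 874, 1037 and 919 after decitabine and 1059, 1015 and 1081 with DMSO, in MOLM-14 418, 475 and 494 after decitabine and 483, 436 and 512 with DMSO, both overlapping. In MOLM-13 the 570, 607 and 604 after decitabine lay below the 706, 706 and 686 with DMSO without a call.

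The Tudor-domain genes ranged from TDRD9, called in 3 lines, to TDRKH, called in none. TDRD9, a Tudor-domain helicase of transposon silencing, had 127, 135 and 146 normalised counts in SKM-1 after decitabine, against 1.17, 1.59 and 1.90 with DMSO. In OCI-AML3 it had 54.2, 58.9 and 43.1 after decitabine and was listed at 0 in the 3 DMSO libraries. In MOLM-14 it had 8.85, 40.8 and 41.6 after decitabine, against 1.54, 0 and 0 with DMSO. These groups did not overlap, with differences of 5.75 ± 0.62 in SKM-1 (SE; adjusted p = 2.48e-07), 5.72 ± 0.62 in OCI-AML3 (adjusted p = 1.27e-06) and 4.25 ± 0.62 in MOLM-14 (adjusted p = 4.49e-05), by limma. The MOLM-14 call was lost in the limma fit on that line alone (adjusted p = 0.0998). KG-1 already expressed TDRD9 with DMSO: it had 125, 63.0 and 89.6 after decitabine and 47.0, 153 and 15.0 with DMSO, and the groups overlapped (0.88 ± 0.62, adjusted p = 0.606). In MOLM-13 it was low in both groups, with 7.43, 4.41 and 3.87 after decitabine and 3.88, 1.70 and 1.71 with DMSO. The printed TDRD9 window holds the most CpGs of the 5.

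TDRD1, the Tudor-domain scaffold that binds methylated PIWI proteins, reached 10 normalised counts in no library but the SKM-1 decitabine libraries. It had 158, 184 and 159 there, against 0, 0.369 and 0.321 with DMSO, a difference of 7.10 ± 0.58 (SE; adjusted p = 2.51e-09, limma). In the other lines it had at most 2.76 after decitabine and 3.28 with DMSO. TDRD12, another Tudor-domain helicase, had 113, 134 and 122 in SKM-1 after decitabine, against 3.26, 3.69 and 2.89 with DMSO, a difference of 4.86 ± 1.03 (SE; adjusted p = 0.00218). OCI-AML3 libraries had 19.1, 0 and 24.3 after decitabine and 23.9, 19.6 and 29.1 with DMSO. KG-1 (10.6, 3.22 and 14.9 after decitabine, 11, 0 and 12.3 with DMSO), MOLM-13 (11.8, 7.02 and 12.7 after decitabine, 8.24, 13.7 and 5.64 with DMSO) and MOLM-14 (7.20, 19.4 and 15.3 after decitabine, 13.9, 0 and 7.46 with DMSO) gave overlapping groups.

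TDRD6, a large Tudor-domain protein of germ granules, averaged 37.0 ± 4.0 normalised counts in SKM-1 after decitabine and 2.33 ± 0.147 with DMSO (SD, n = 3 each; difference 3.51 ± 0.39, SE, adjusted p = 4.71e-07). PLA2G7, a lipase gene on the opposite strand that overlaps TDRD6, rose there by a like amount (3.47 ± 0.61, adjusted p = 0.000318), and since whether counting used the strand is not given in the sources used here, their reads cannot be told apart with certainty. STK31, a Tudor-domain protein with a kinase fold, had 19.4, 21.7 and 19.8 in SKM-1 after decitabine, against 2.44, 0.237 and 3.53 with DMSO, a difference of 2.99 ± 0.93 (SE; adjusted p = 0.0444). Its groups also stood apart, uncalled, in KG-1, with 9.45, 14.6 and 7.47 after decitabine and 5.11, 5.89 and 5.52 with DMSO, and in OCI-AML3, with 6.43, 5.42 and 4.77 after decitabine and 0, 0 and 2.05 with DMSO. In MOLM-13 (3.54, 0.146 and 2.66 after decitabine, 1.78, 1.63 and 5.39 with DMSO) and MOLM-14 (3.23, 34.8 and 0 after decitabine, 12.8, 0 and 3.82 with DMSO) they overlapped. The SKM-1 call of STK31 was lost in 16 of 30 fits that left out 1 library, including each of the 6 that left out an SKM-1 library (adjusted p up to 0.234), and its panel mean call in 24 of 30 (up to 0.0903).

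TDRD7, a Tudor-domain protein also used outside the germ line, in the lens, had 363 ± 3.93 normalised counts in SKM-1 after decitabine and 326 ± 3.31 with DMSO (SD, n = 3 each), and was called in MOLM-14 (0.37 ± 0.11, SE, adjusted p = 0.0354) and on the panel mean (0.21 ± 0.05, adjusted p = 0.00327). The MOLM-14 call was lost without decitabine replicate 1, decitabine replicate 3 or DMSO replicate 2 of that line (adjusted p up to 0.184). It was also lost with no filter on low values (0.08), after quantile normalization (0.0836) and in the limma fit on that line alone (0.4). TDRKH, a Tudor-domain partner of piRNA trimming, was called on the panel mean (0.40 ± 0.11, adjusted p = 0.0105) and in no line. MAEL, a germ granule protein of transposon silencing, averaged 244 ± 12.3 in SKM-1 after decitabine and 21.4 ± 0.877 with DMSO (SD, n = 3 each; difference 3.45 ± 1.08, SE, adjusted p = 0.0453). Its groups were far apart in SKM-1, but replicates spread widely elsewhere, with 66.5 in 1 shallow OCI-AML3 DMSO library and 0 in the other 2. The call was lost in 16 of 30 fits that left out 1 library, including all 6 SKM-1 libraries and all 6 of MOLM-13 (adjusted p up to 0.117). MOV10L1, the helicase that feeds precursors into the pathway, had 29.4, 32.8 and 31.0 in SKM-1 after decitabine and 6.72, 6.86 and 4.82 with DMSO, without overlap and without a call (adjusted p = 0.163). ASZ1, TDRD5 and RNF17 did not pass the filter and reached 6.64, 2.75 and 3.36 in their highest library.

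**Figure D3:**
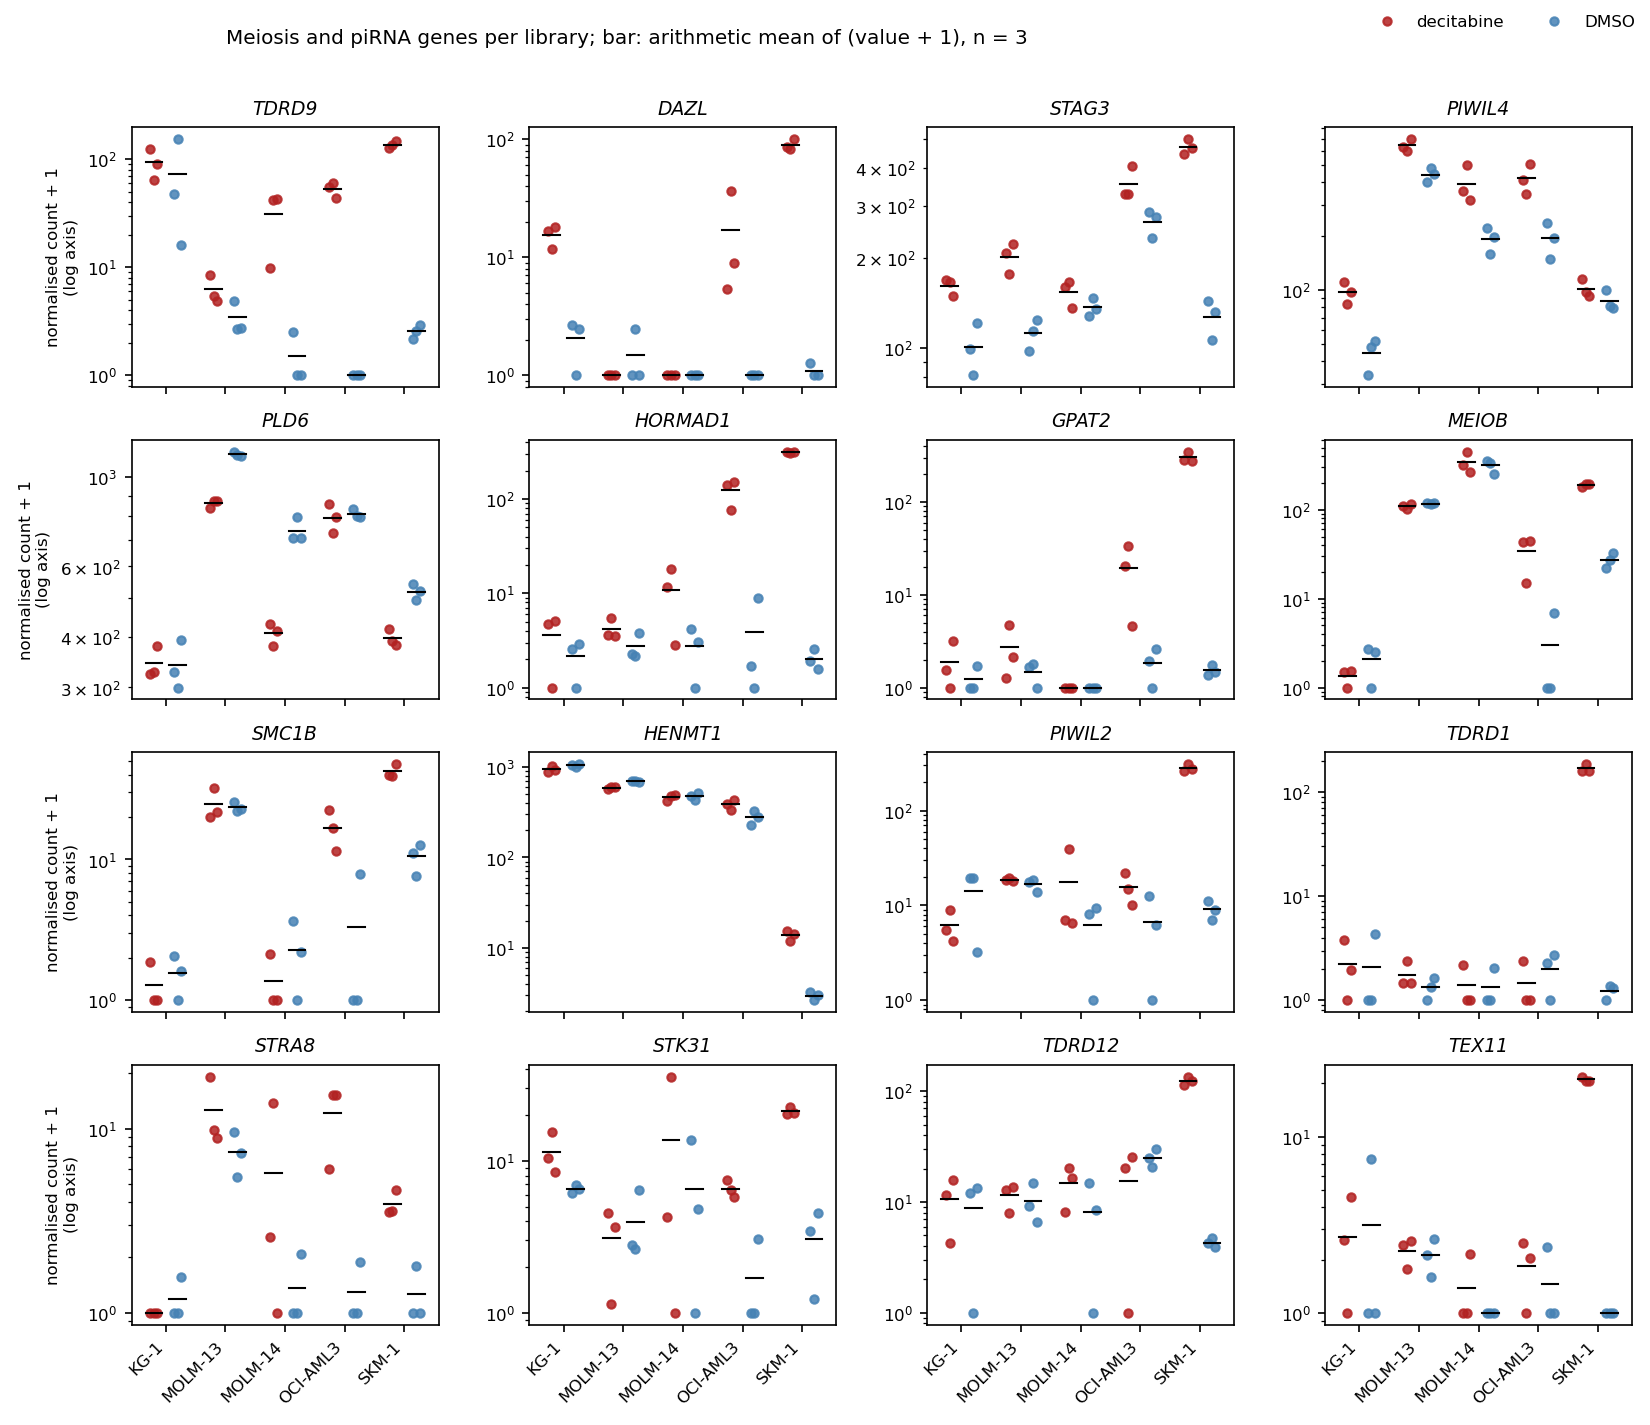
Normalised counts plus 1 (log axis) in each library of the 5 lines for 16 members, decitabine in red left of DMSO in blue; each point is a library and the bar is the mean of 3. TDRD1 and TEX11 stand above 10 in the SKM-1 decitabine libraries alone, while PIWIL4, PLD6 and STAG3 are expressed in all 30 libraries.

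Of the 5 tested synaptonemal complex and axis genes, 2 rose in SKM-1 (background 5.7%) and 1 in OCI-AML3 (background 3.74%). HORMAD1, an axis protein that promotes breaks and pairing (GRCh38 chromosome 1, 150698060 to 150720888, minus strand), had 317, 303 and 311 normalised counts in SKM-1 after decitabine, against 0.920, 1.55 and 0.581 with DMSO. In OCI-AML3 it had 138, 75.8 and 152 after decitabine, against 0.700, 0 and 7.93 with DMSO. Neither line had overlapping groups, and the differences were 7.30 ± 0.77 in SKM-1 (SE; adjusted p = 1.95e-07) and 5.57 ± 0.77 in OCI-AML3 (adjusted p = 3.99e-05), by limma. In MOLM-14 it had 10.6, 17 and 1.81 after decitabine and 3.18, 0 and 2.05 with DMSO (adjusted p = 0.131). It stayed at or below 4.11 in KG-1 after decitabine and 1.89 with DMSO, and at or below 4.49 in MOLM-13 after decitabine and 2.83 with DMSO. The OCI-AML3 call of HORMAD1 was lost in the limma fit on that line alone (adjusted p = 0.0793). The paralogue HORMAD2 exceeded 10 in 1 library (11.6) and was not tested.

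SYCP3, an axis component of the synaptonemal complex, averaged 19.5 ± 1.54 normalised counts in SKM-1 after decitabine and 5.38 ± 3.68 with DMSO (SD, n = 3 each; difference 1.84 ± 0.50, SE, adjusted p = 0.0171), a call lost without decitabine replicate 2, decitabine replicate 3, DMSO replicate 2 or DMSO replicate 3 of SKM-1 (up to 0.14). Its partner SYCP2 had 292, 335 and 376 there after decitabine and 140, 126 and 127 with DMSO, without overlap and without a call (adjusted p = 0.279). SYCP1, the filament that bridges the axes, and SYCE2, of the central element, were called in no line, with highest values of 17.4 and 139. SYCE1 and SYCE3, also of the central element, did not exceed 9.74 and 4.08 and were not tested.

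Of the meiotic cohesin subunits, STAG3 rose in 3 lines and SMC1B in 2. STAG3, the meiotic counterpart of STAG1 and STAG2, had 447, 500 and 468 normalised counts in SKM-1 after decitabine, against 143, 105 and 131 with DMSO. In MOLM-13 it had 207, 176 and 222 after decitabine, against 96.6, 113 and 123 with DMSO. In KG-1 it had 168, 166 and 149 after decitabine, against 98.1, 80.1 and 120 with DMSO. None of these groups overlapped, and the differences were 1.90 ± 0.16 in SKM-1 (SE; adjusted p = 4.99e-09), 0.85 ± 0.16 in MOLM-13 (adjusted p = 0.00317) and 0.71 ± 0.16 in KG-1 (adjusted p = 0.01), by limma. OCI-AML3 libraries had 326, 326 and 406 after decitabine and 285, 233 and 273 with DMSO (adjusted p = 0.149), and in MOLM-14 160, 165 and 136 after decitabine and 127, 147 and 134 with DMSO, which overlapped. The KG-1 call was lost without DMSO replicate 2 of that line (adjusted p = 0.0814) and without the 6 shallow libraries (0.0759). It was also lost in the limma fit on that line alone (adjusted p = 0.307). The MOLM-13 call was lost after quantile normalization (adjusted p = 0.0619, limma). STAG3 values are uncertain because partial copies of the gene are expressed: STAG3L5P ranged from 230 to 721 and rose in MOLM-13 (0.81 ± 0.15, adjusted p = 0.00289) and not in SKM-1 (0.30 ± 0.15, adjusted p = 0.302). CASTOR3, which overlaps STAG3 on the opposite strand, rose in SKM-1 (0.94 ± 0.24, adjusted p = 0.012) and in MOLM-14 (1.05 ± 0.24, adjusted p = 0.00536).

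SMC1B, the meiotic counterpart of SMC1A, had 21.5, 15.6 and 10.5 normalised counts in OCI-AML3 after decitabine, against 0, 0 and 6.88 with DMSO, a difference of 3.03 ± 0.62 (SE; adjusted p = 0.00322, limma). In SKM-1 it had 38.6, 38.4 and 46.6 after decitabine, against 10.1, 6.69 and 11.7 with DMSO, a difference of 2.03 ± 0.62 (adjusted p = 0.0378). Neither line had overlapping groups, but the SKM-1 call was lost without any 1 of the 6 SKM-1 libraries (adjusted p up to 0.162), and the OCI-AML3 call with library weights and in the fit on that line alone (up to 0.365). MOLM-13 expressed it in both groups, with 18.9, 31.4 and 20.9 after decitabine and 24.7, 21.0 and 21.8 with DMSO. It stayed at or below 0.854 in KG-1 after decitabine and 1.05 with DMSO, and at or below 1.14 in MOLM-14 after decitabine and 2.65 with DMSO. REC8, the kleisin that replaces RAD21 in meiosis, was called in no line; it averaged 160 ± 89.9 with DMSO in OCI-AML3 and 3.11 ± 1.07 with DMSO in SKM-1 (SD, n = 3 each). RAD21L1, another meiotic kleisin, did not exceed 1.73.

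Of the 4 tested recombination genes, MEIOB and TEX11 rose in SKM-1 (background 5.7%), and MEIOB also in OCI-AML3 (background 3.74%). SPO11, the break-forming enzyme, was at 0 in all 30 libraries. MEIOB, a single-stranded DNA-binding partner of recombination, had 180, 194 and 193 normalised counts in SKM-1 after decitabine, against 20.9, 25.9 and 32.0 with DMSO, a difference of 2.82 ± 0.54 (SE; adjusted p = 0.000739, limma). In OCI-AML3 it had 42.2, 14 and 43.5 after decitabine, against 0, 0 and 5.96 with DMSO, a difference of 4.01 ± 0.54 (adjusted p = 2.93e-05). In neither line did the groups overlap. The OCI-AML3 call of MEIOB was lost in the limma fit on that line alone (adjusted p = 0.222). MOLM-14 and MOLM-13 expressed MEIOB without decitabine: MOLM-14 had 318, 449 and 264 after decitabine and 356, 338 and 249 with DMSO, and MOLM-13 had 110, 99.9 and 114 after decitabine and 117, 114 and 117 with DMSO. KG-1 had at most 0.537 after decitabine and 1.75 with DMSO.

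TEX11, an X-linked crossover factor, had 20.9, 19.7 and 19.8 normalised counts in SKM-1 after decitabine and was listed at 0 in the 3 DMSO libraries, a difference of 4.40 ± 0.62 (SE; adjusted p = 1.81e-05, limma). In the other lines it had at most 3.51 after decitabine and 6.48 with DMSO. TEX11 would not have passed the filter without the SKM-1 decitabine libraries, so its call there follows in part from the filter. DMC1, the meiotic recombinase, was expressed with DMSO in several lines (110 ± 24.6 in SKM-1, 4.18 ± 3.78 in MOLM-14, SD, n = 3 each) and called in no line. In OCI-AML3 its 128, 83.0 and 54.7 after decitabine lay above the 47.9, 44.8 and 42.6 with DMSO (adjusted p = 0.416), and in MOLM-13 its 36.4, 29.9 and 26.6 after decitabine lay below the 40.7, 70.0 and 42.3 with DMSO (adjusted p = 0.802). TEX15, which acts in break repair and in piRNA-directed silencing in mouse, differed widely between lines with DMSO, with 5915 ± 376 in MOLM-13, 1605 ± 92.1 in SKM-1, 149 ± 40.2 in MOLM-14, 51.0 ± 28.7 in OCI-AML3 and 40.1 ± 40.5 in KG-1 (SD, n = 3 each). The last 2 of these differed by less than their spread. After decitabine it had 4178, 4328 and 4061 in MOLM-13 and 1548, 1592 and 1608 in SKM-1, and it was called in neither.

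Of the genes of meiotic entry, STRA8 was called in a single line. It would not have passed the filter without the OCI-AML3 decitabine libraries, so its call in OCI-AML3 follows in part from the filter. That call was lost in the limma fit on the line alone (adjusted p = 0.2). STRA8, the retinoic acid-induced factor that starts meiosis, had 5.05, 14.2 and 14.3 normalised counts in OCI-AML3 after decitabine, against 0, 0 and 0.892 with DMSO, a difference of 3.18 ± 0.64 (SE; adjusted p = 0.00268, limma). In MOLM-13 it had 18.2, 8.80 and 7.94 after decitabine and 8.55, 4.43 and 6.40 with DMSO, in MOLM-14 1.57, 12.7 and 0 after decitabine and 0, 0 and 1.08 with DMSO, both overlapping. In SKM-1 its 2.51, 2.59 and 3.65 after decitabine lay above the 0, 0.804 and 0 with DMSO, without a call (adjusted p = 0.114), and in KG-1 it was at 0 in the decitabine libraries and reached 0.568 with DMSO. MEIOC, which sustains the meiotic programme, had 979, 1137 and 973 in SKM-1 after decitabine and 434, 458 and 389 with DMSO, apart but not called (adjusted p = 0.555); across libraries of MOLM-14 it ran from 3.40 to 161 after decitabine and from 11.9 to 113 with DMSO, the highest in each group being the shallow library. BRDT, the testis-specific bromodomain protein, had 9.10, 6.65 and 8.71 in SKM-1 after decitabine and 0.0726, 0.895 and 2.25 with DMSO (adjusted p = 0.0694). TEX14, a protein of the bridges between germ cells, was called in no line and reached 27.0, and TEX101, a germ cell surface protein, exceeded 10 in 1 library (11.3) and was not tested.

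With DMSO, levels of 18 of the 34 tested members differed between lines (F-test, limma), which is 52.9% against a background of 77.9%. The lowest adjusted p among members was that of HENMT1 (1.03e-23), followed by TDRD7 (2.61e-19), PLD6 (8.19e-13), MEIOB (2.59e-12) and PIWIL4 (4.42e-12). The members with the largest responses in SKM-1, GPAT2, HORMAD1, TDRD1 and DAZL, were near 0 with DMSO in all 5 lines and were not called in this test (adjusted p = 0.714, 0.973, 0.821 and 0.391). TDRD9 was the exception among the strong responders, with 71.7 ± 72.3 normalised counts with DMSO in KG-1 and at most 2.43 ± 1.25 (in MOLM-13) elsewhere (SD, n = 3 each; adjusted p = 7.42e-08).

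**Figure D4:**
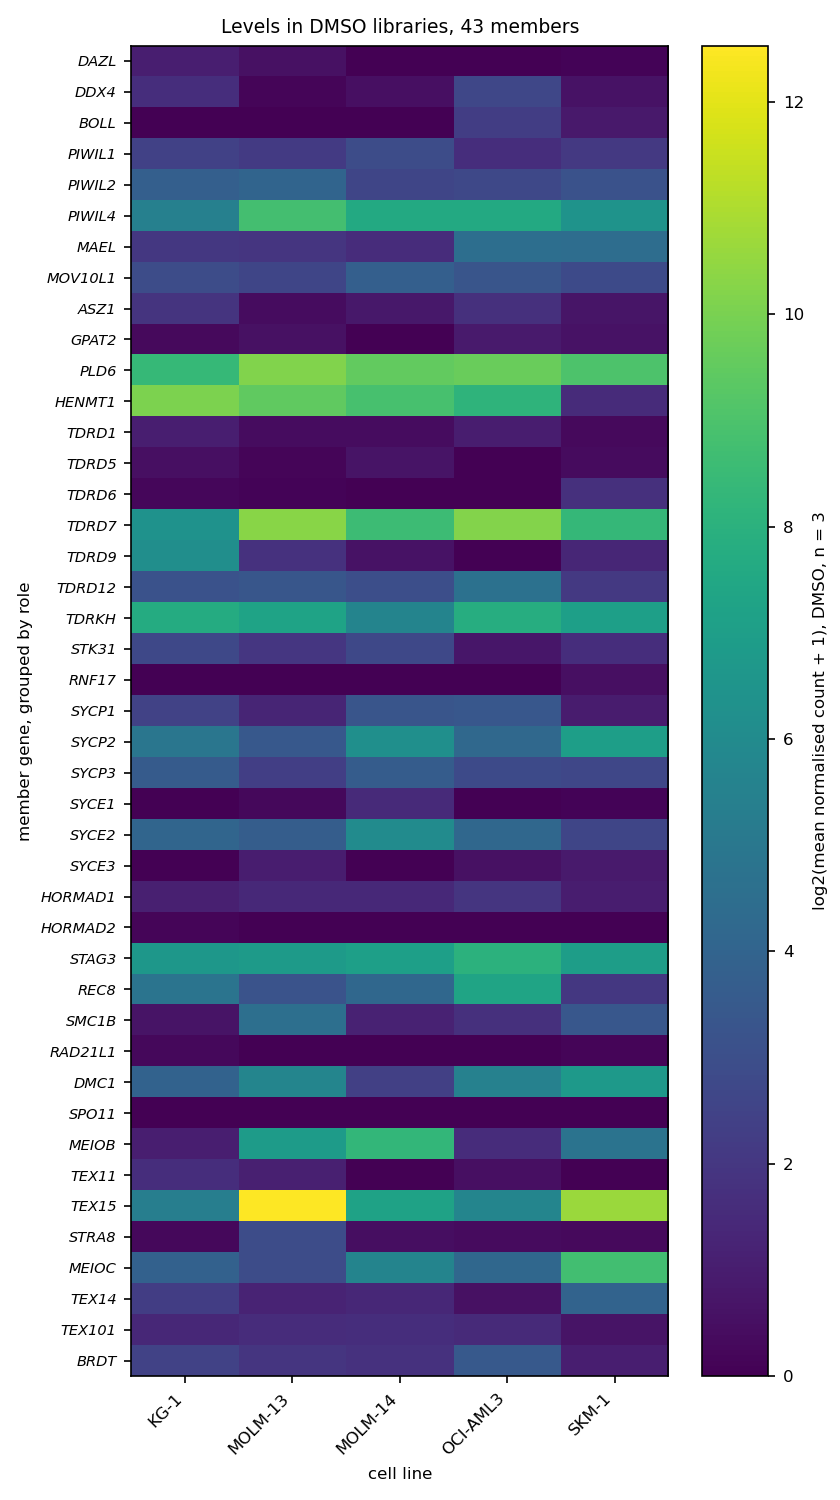
Mean level of all 43 members with DMSO in the 5 lines (rows, members grouped by role; columns, lines), coloured by log2(mean normalised count + 1), n = 3 libraries per line. HENMT1 is bright in every line but SKM-1 (1.96 normalised counts), TEX15 is brightest in MOLM-13 (5915), and SPO11 is at 0 throughout.

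Of 35 other meiosis genes, 24 were tested; 5 rose (background 12%) and 3 fell (background 7.52%) on the panel mean. CCNA1, the germ cell A-type cyclin, rose by 1.91 ± 0.09 (SE; adjusted p = 1.25e-13), with 694 normalised counts on average in SKM-1 after decitabine and 194 with DMSO. RNF212, a crossover factor, rose by 1.2 ± 0.41 (adjusted p = 0.0411), with 34 in SKM-1 after decitabine and 0.155 with DMSO. HSPA2, a heat-shock protein of spermatocytes, rose by 1.02 ± 0.21 (adjusted p = 0.0011), and HSF2BP, a recombination factor that binds BRCA2, fell by 1.03 ± 0.31 (adjusted p = 0.0202). The median difference of these 24 genes was 0.20, against 0.06 over all tested genes and 0.80 for the members.

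Of 22 other piRNA pathway genes, 17 were tested; 4 rose on the panel mean (background 12%), and 5 rose in SKM-1 (background 5.7%). GTSF1, a cofactor of PIWI proteins, had a mean of 154 normalised counts in SKM-1 after decitabine and 0.139 with DMSO, and it was high in OCI-AML3 under both treatments (529 after decitabine and 456 with DMSO). Its panel mean difference was 2.75 ± 0.34 (SE; adjusted p = 1.95e-06). PNLDC1, the exonuclease that trims piRNAs, had 29.3 in SKM-1 after decitabine and 0.506 with DMSO (panel mean 1.80 ± 0.32, adjusted p = 0.000176). TDRD15, a further Tudor-domain gene, had 45.1 in SKM-1 after decitabine and was listed at 0 with DMSO, and KIF17, a kinesin motor, had 37.9 after decitabine and 0.55 with DMSO. Their panel mean differences were 1.73 ± 0.25 (adjusted p = 1.21e-05) and 1.79 ± 0.50 (adjusted p = 0.0112).

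All 19 listed repressors of germline genes were tested; 1 rose (background 12%) and 4 fell (background 7.52%) on the panel mean. MORC2, an ATPase of chromatin silencing, rose by 0.26 ± 0.08 (SE; adjusted p = 0.0155). TFDP1, the partner of E2F factors, fell by 0.29 ± 0.05 (adjusted p = 0.000168), and PCGF6, of the Polycomb complex that holds E2F6, fell by 0.19 ± 0.05 (adjusted p = 0.00701). Among single lines PCGF6 was called in MOLM-14 alone (-0.63 ± 0.11, adjusted p = 0.000418, limma). Its response differed between lines (F-test, adjusted p = 0.0372). UHRF1, which brings DNMT1 to replicated DNA, fell by 0.18 ± 0.05 (adjusted p = 0.00869). The median of the 19 was -0.08.

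Of 11 genes listed as counterparts or relatives of the members in mitotic cells, all tested, 5 fell on the panel mean (background 7.52%), and the median difference was -0.10. Not each of them is the direct counterpart of a member. STAG1 and SMC3, cohesin subunits of mitotic cells, fell by 0.33 ± 0.06 (SE; adjusted p = 0.000574) and 0.27 ± 0.04 (adjusted p = 8.32e-05). RAD21, the mitotic kleisin, fell by 0.23 ± 0.04 (adjusted p = 8.76e-05), and MAD2L1, a spindle checkpoint protein, fell by 0.30 ± 0.06 (adjusted p = 0.00132). The responses of RAD21 and SMC3 differed between lines (F-test, adjusted p = 0.000167 and 0.00324). RAD21 was called lower in MOLM-13 (-0.52) and MOLM-14 (-0.60), and not called in SKM-1 (-0.27), KG-1 (0.02) or OCI-AML3 (0.20). SMC3 was called lower in MOLM-13, MOLM-14 and SKM-1, and not called in KG-1 (-0.02) or OCI-AML3 (0.09). The fifth, TOP2A, a DNA topoisomerase, fell by 0.10 ± 0.03 (adjusted p = 0.0373) on the panel mean and rose in KG-1 (0.38 ± 0.07, adjusted p = 0.00177). The lists of other pathway genes were chosen with earlier results of these data known, and their counts are descriptions.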

How the data were processed

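The authors deposited 1 table of DESeq2-normalised estimated counts, per its name, used here as a signal per gene. Per the submitters' processing notes, Salmon 1.2.1, STAR, featureCounts, DESeq2, limma and the build hg38 were used, in roles not stated. Of 42 labelled libraries, 30 were analysed; 12 (OCI-AML2, THP-1) were not analysed here, and 12 unmatched columns were not used. MOLM-14 is absent from the design text, and the treatment letters of the KG-1, MOLM-14 and OCI-AML3 columns were read as in SKM-1 and MOLM-13. Only 44.4% to 68.7% of low values were whole reads (tolerance 0.02), so no count model was run.

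Values were taken as log2(value + 1) and modelled by 10 group means in limma 3.58.1 with trend and robust options (statmod 1.5.0, R 4.3.3), with 20 residual degrees of freedom, with the filter and threshold given above. The fit was tested on simulated data. Values per library are given for the 16 members called in most lines, ties broken by panel mean change. From 4 other lists, up to 4 genes with the largest panel mean change are named. Members and lists were chosen with earlier results of these data known. Alternatives changed the pseudocount, filter, scaling, weights, libraries, lines and a replicate block. Gene positions are GENCODE 29, and promoters are RefSeq.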

Additional observations from a re-analysis of the deposited data

Results flagged for a closer look

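The response to decitabine differed between the 5 lines (limma F-test over the 4 differences between lines, Benjamini-Hochberg adjusted over all genes tested) for 15 members. For these the adjusted p was 9e-09 in HENMT1, 1.28e-06 in TDRD1, 1.46e-06 in DAZL and 1.67e-06 in GPAT2. It was 8.61e-05 in STAG3, 0.000123 in TDRD9, 0.000125 in HORMAD1 and 0.00013 in TDRD6. It was 0.000282 in MEIOB, 0.000334 in BOLL, 0.000779 in PLD6 and 0.00419 in TEX11, and 0.0156 in SMC1B, 0.0177 in PIWIL2 and 0.0377 in TDRD12. The difference between decitabine and DMSO was highest in SKM-1 for 12 of these 15 members. Of these, TDRD1, GPAT2, TDRD6, BOLL and TEX11 would not have passed the filter without the SKM-1 decitabine libraries, so their results follow in part from the filter.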

How the results depend on the processing

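Of 2302 values of single member calls under an alternative, 2108 stayed past the threshold, 193 fell short of it with the same sign, and 1 reversed: BOLL, at -0.17 on the panel mean without SKM-1. On the panel mean 9 members were called without SKM-1, in place of 19. In MOLM-13, in place of 2, limma called 1 with no filter on low values, 0 after quantile normalization (5 at an unadjusted p below 0.05), 1 after scaling without mitochondrial genes, 9 with library weights, 5 without the 6 shallow libraries and 8 on its own libraries. On the libraries of 1 line alone the counts were 0 in KG-1 (3 at an unadjusted p below 0.05), 1 in MOLM-14 and 1 in OCI-AML3, in place of 3, 4 and 9; that fit has fewer samples. The response differed between lines for 24 members with library weights and 5 without SKM-1, in place of 15. Where the cause of a move is not named here, it was not tested. Leaving out 1 library at a time gave 16 to 20 calls on the panel mean, 2 to 3 in KG-1, 1 to 2 in MOLM-13, 3 to 6 in MOLM-14, 8 to 10 in OCI-AML3 and 13 to 20 in SKM-1, 13 to 16 for the response and 18 to 21 for the DMSO level between lines. Of 37 calls in single lines, 27 were kept in all 30 such fits. For a call in 1 line, most of these fits leave out a library of another line. That leaves the difference itself unchanged and can move only its SE and p-value. Such fits are also among the 2302 values above, so that total says little of the replicates of the line called.

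Replicate numbers are shared by the arms, and the labels do not say that a number marks a shared culture or batch. Correlated deviations over 0.1 were found in 6 of 15 pairs (r from -0.02 to 0.153), not in every pair, so the numbers were not taken to pair the samples; that 12 of 15 libraries were closest to their own number is a hint of pairing from the data, not the design. With a replicate block, 18 members were called on the panel mean, 3 in KG-1, 2 in MOLM-13, 4 in MOLM-14, 8 in OCI-AML3 and 18 in SKM-1, and 14 for the response. STK31 (adjusted p = 0.0994) left the panel mean, HENMT1 (0.0644) left OCI-AML3, and MAEL (0.125) and STK31 (0.101) left SKM-1. Depth limits values under about 10 in the 6 shallow libraries.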
